A study of Mus musculus with 2 samples.

Results

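Among 8481 fibro/adipogenic progenitors (FAPs) sorted from mouse limb muscle, 151 cells carried transcripts that are typical of fat cells. They were chosen by the counts themselves: a cell was a member when its UMIs (unique molecular identifiers, each of which marks 1 captured transcript) of *Adipoq*, *Plin1*, *Plin4*, *Car3*, *Fabp4* and *Pparg* summed to 3 or more. These 6 genes are called the gate below. Of the 151 members, 18 were found in 4103 cells labelled *Bap1* WT and 133 in 4378 cells labelled *Bap1* ΔMPC.

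The study examined what the deubiquitinase Bap1 does in mesenchymal progenitors of muscle, and for this droplet scRNA-Seq was run on FAPs of 2 genotypes, with 1 library each. By their labels both libraries came from the C57BL/6 strain at 3 weeks of age (the study's methods name the C57BL/6J background), and both sets of mice were homozygous for the floxed allele (Bap1f/f). The *Bap1* WT mice carried no Cre by their label, whereas the *Bap1* ΔMPC mice were Prx1-Cre;Bap1f/f, in which Cre acts in limb mesenchyme at large, so tendon, bone and fat lineages of the limb can carry the deletion as well as FAPs. The sorted cells lacked the lineage markers CD45 and CD31, lacked Vcam1 and carried Sca1, and how many mice went into a library was not stated. With 1 library per genotype no test of the genotypes was possible. All intervals below are exact 95% intervals that cover counting error only, and a difference between the libraries cannot be told apart from a difference between the mice or preparations they came from.

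FAPs are the interstitial mesenchymal cells of muscle that can turn into adipocytes, and their fat accumulates when muscle degenerates. In adipogenesis the nuclear receptor PPARγ (*Pparg*) and the factor C/EBPα (*Cebpa*) sustain each other's expression and switch on genes for fatty acid uptake, triglyceride synthesis and the coat of the lipid droplet. Of the gate genes, *Plin1* and *Plin4* encode droplet coat proteins, *Fabp4* a fatty acid carrier, *Adipoq* the hormone adiponectin and *Car3* a carbonic anhydrase abundant in fat. *Car3* is also made by myofibers and *Fabp4* by capillary endothelium, so markers of those cells are given with the results.

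Members made up 0.439% of the *Bap1* WT cells (interval 0.260 to 0.692) and 3.04% of the *Bap1* ΔMPC cells (2.55 to 3.59). The share was 6.92 times as high in the *Bap1* ΔMPC library (4.22 to 12.0). At 5 or more gate UMIs the ratio of shares was 6.56. At 10 or more, with 5 *Bap1* WT cells and 51 *Bap1* ΔMPC cells, it was 9.56 (3.84 to 30.7), an interval that takes in the ratio at 3 or more. For cells with any gate UMI the gap was narrower, with 6.60% against 18.6%. A deep cell reaches 3 UMIs more easily, so each cell was also thinned at random to 5000 UMIs, for which 3983 *Bap1* WT and 4168 *Bap1* ΔMPC cells were deep enough. After thinning, 7 cells (0.176%) and 76 cells (1.82%) were members, a ratio of 10.4 (4.80 to 26.7). Thinned to 8000 UMIs, the shares were 0.339% and 2.36%. The order of the libraries was therefore the same at equal depth. No cell type that should lack these transcripts was among the deposited cells, so the share that free RNA gives could not be read from one, and its part in the low gate counts was not tested.

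**Figure D1:**
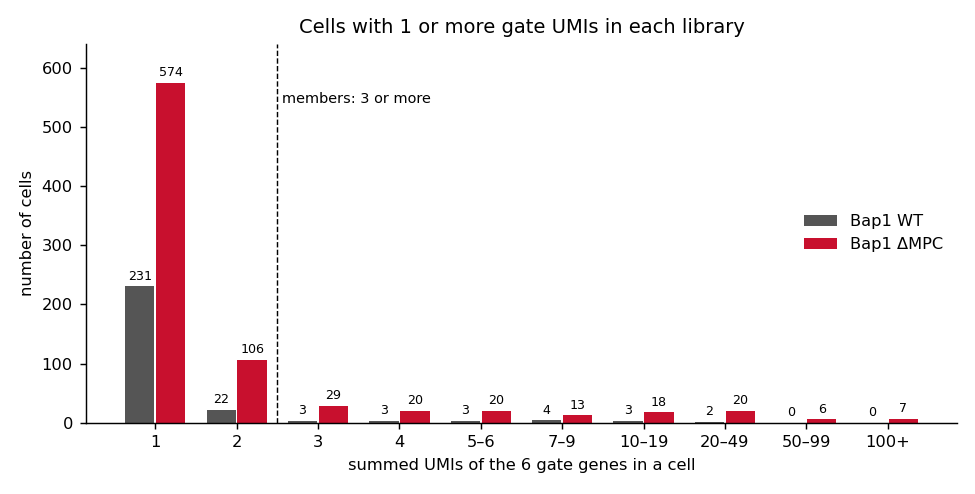
Number of cells (vertical axis) by summed UMIs of the 6 gate genes in a cell (horizontal axis), for the libraries labelled Bap1 WT (grey) and Bap1 ΔMPC (red); cells with 0 gate UMIs are not drawn, and the dashed line marks the threshold. The Bap1 ΔMPC bar is the taller in every class, and only that library has cells with 50 or more gate UMIs, up to 465.

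Which gate gene brought a cell in differed from member to member. In the *Bap1* ΔMPC library *Fabp4* gave 1934 of the members' gate UMIs and was present in 96 of the 133 members. *Pparg* was almost as widespread, in 94 members, but gave 246 UMIs. *Car3* gave 1004 UMIs in 44 members, *Plin1* 158 in 36, *Adipoq* 88 in 30 and *Plin4* 70 in 26. Most of these members held more than 1 gate gene, namely 107 of the 133, and 13 held 5 of the 6, whereas 10 of the 18 *Bap1* WT members held a single one. In the *Bap1* WT members *Fabp4* gave 89 UMIs in 14 cells, *Car3* 38 UMIs in 3 cells and *Pparg* 17 UMIs in 7 cells. *Plin4* gave 8 UMIs there, *Adipoq* 3 and *Plin1* 1. Members held 81.7% of all gate UMIs of the *Bap1* ΔMPC library and 36.2% of those of the *Bap1* WT library.

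The gate UMIs were unevenly spread. The richest *Bap1* ΔMPC cell had 465 of them, 2.93% of its 15867 UMIs, with 223 of *Fabp4* and 203 of *Car3*. The next cells had 381 and 224. The richest *Bap1* WT cell had 32, of which 31 were *Car3*. At the threshold itself, 29 *Bap1* ΔMPC cells had exactly 3 gate UMIs and 106 had exactly 2, against 3 and 22 in *Bap1* WT. Levels just inside and just outside are given as CPM (UMIs of a gene per 1000000 UMIs summed over the same cells). At exactly 3 and exactly 2 gate UMIs in the *Bap1* ΔMPC library, *Cebpa* stood at 68.2 and 61.3 CPM and *Pdgfra* at 330 and 360 CPM. Some gene lists described below stood further apart at that step: the committed preadipocyte list was at 5748 and 4360 CPM, the lipid uptake list at 3284 and 2827 CPM and the adipokine list at 1277 and 975 CPM. The *Dpp4*-type list was at 428 and 763 CPM and the tendon list at 90.0 and 387 CPM.

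Members were somewhat deeper than the cells with 0 gate UMIs in their own library. In *Bap1* WT the median was 15641.5 UMIs per member against 12172.5, and in *Bap1* ΔMPC 12817 against 10873. The median number of detected genes was 3857.5 against 3448.5 and 3496 against 3301. The doublet caller Scrublet, run on each library, marked 2 and 1 cells and no member, but a caller that marks so few cells of a library already gated for doublets has little to go on. Its median score in members was 0.0453 in *Bap1* WT and 0.0537 in *Bap1* ΔMPC, below the 0.0472 and 0.0561 of the cells with 0. Members had a higher ribosomal protein share of UMIs, 13.3% against 12.0% and 15.5% against 13.1%, and a mitochondrial share of 2.63% against 2.58% and 2.89% against 2.73%.

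**Figure D2:**
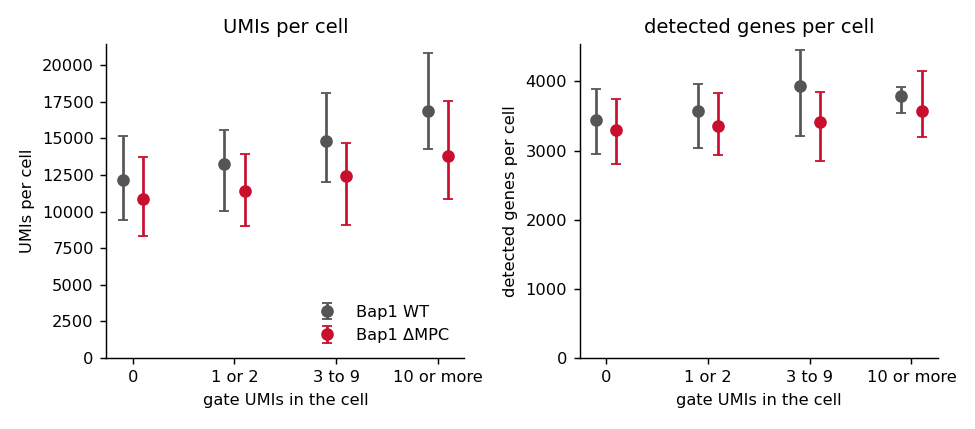
UMIs per cell (left) and detected genes per cell (right) for cells grouped by gate UMIs, with points at the median and bars from the first to the third quartile, for Bap1 WT (grey) and Bap1 ΔMPC (red). Medians rise from 10873 UMIs at 0 gate UMIs to 13788 at 10 or more in Bap1 ΔMPC, and the quartile ranges overlap.

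Markers of other cells were counted in the members. Summed over 8 cell types that the sort could have let through (immune, endothelial, myofiber, muscle stem, Schwann, mural, tendon and erythroid cells), they came to 483 CPM in *Bap1* ΔMPC members against 739 CPM in the cells with 0, and to 430 against 544 CPM in *Bap1* WT. In both libraries the tendon list by itself differed by more than these sums did, at 102 against 451 CPM in *Bap1* ΔMPC and 32.0 against 219 CPM in *Bap1* WT, and several other lists were higher in the members. The myofiber list, which bears on *Car3*, was lower in the members, at 28.1 against 64.0 CPM in *Bap1* ΔMPC and 46.2 against 87.0 CPM in *Bap1* WT. The endothelial list, which bears on *Fabp4*, was higher, at 38.6 against 15.2 CPM and 39.1 against 18.0 CPM. It rested on *Pecam1* (CD31), at 19.9 against 3.86 CPM in *Bap1* ΔMPC, and *Egfl7*. *Cdh5*, *Tie1*, *Emcn* and *Cldn5* had no UMI in *Bap1* ΔMPC members. These absences tell little, since only 5 of the 10 endothelial genes reached 20 UMIs in members and cells with 0 together. No *Bap1* ΔMPC member had more than 4 UMIs of the endothelial list or 5 of the myofiber list. By the study's methods, cells high in markers of other muscle cells had been removed, so low maxima were partly set in advance. In *Bap1* ΔMPC cells with 1 or 2, 3 to 9 and 10 or more gate UMIs, the endothelial list was at 16.1, 28.9 and 52.4 CPM. The myofiber list was at 55.6, 29.9 and 25.5 CPM in these cells. The immune list was at 52.1 against 17.4 CPM in *Bap1* ΔMPC members through *Lyz2*, with 32 of its 71 UMIs in 1 cell. *Ptprc* (CD45) had no UMI in these members, and none in the cells with 0. *Pax7*, *Myf5* and *Myod1* of muscle stem cells had none in these members either, but were too rare to be tested, with under 20 UMIs in both groups together. *Vcam1*, the gene of the protein sorted against, was at 46.8 against 17.0 CPM in *Bap1* ΔMPC and 139 against 36.3 CPM in *Bap1* WT. The whole muscle stem cell list was at 52.1 against 30.6 CPM in *Bap1* ΔMPC and 146 against 43.2 CPM in *Bap1* WT. In *Bap1* ΔMPC members the erythroid, Schwann and mural lists were at 9.95, 128 and 72.0 CPM, against 20.0, 75.0 and 65.7 CPM in cells with 0. In *Bap1* WT the immune and Schwann lists were at 24.9 and 49.8 CPM in members against 9.97 and 28.8 CPM, on 7 and 14 UMIs, and the erythroid and mural lists at 10.7 and 81.8 against 40.1 and 98.0 CPM. The part of these transcripts in the results was not tested. The libraries shared 5 cell barcodes, none of them a member's. The deleted gene gave no separation of the labels: *Bap1* had 897 UMIs (17.6 CPM) in the *Bap1* WT library and 1072 (21.6 CPM) in the *Bap1* ΔMPC library, and in members 2 UMIs and 39 UMIs. Counts per gene do not show whether the floxed part of a transcript was present.

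The members kept the genes by which FAPs are recognised. *Pdgfra*, the surface receptor that defines FAPs in mouse muscle, was at 338 CPM in *Bap1* WT members against 347 CPM in cells with 0, and at 321 against 291 CPM in *Bap1* ΔMPC. It was detected in 17 of 18 and 110 of 133 members, or 94.4% and 82.7%, close to the 93.7% and 83.2% of cells with 0. The collagen gene *Col3a1* and the proteoglycan gene *Dcn* had UMIs in every member of both libraries. To call a gene higher or lower in members, its CPM had to differ more than 2-fold from the cells with 0 of the same library, with a counting interval of the ratio that left out equality. Of 13485 genes with 20 or more UMIs in *Bap1* WT, 2.60% were called higher and 2.09% lower, and of 13415 in *Bap1* ΔMPC, 4.32% and 5.70%. Of the 20 FAP genes 0 were called higher in either library. *Mfap5*, a microfibril gene, was called lower in both, at 1070 against 2865 CPM in *Bap1* WT and 685 against 2267 CPM in *Bap1* ΔMPC. *Cd34*, a surface sialomucin gene, was also called lower in *Bap1* ΔMPC, at 504 against 1177 CPM, and was at 626 against 1002 CPM in *Bap1* WT. The others lay within 2-fold. *Ly6a*, which encodes the sort antigen Sca1, was at 1374 against 2047 CPM in *Bap1* ΔMPC and 1906 against 1633 CPM in *Bap1* WT. The median log2 ratio of the 20 genes was 0.07 in *Bap1* WT and -0.23 in *Bap1* ΔMPC, beside -0.01 and -0.05 over all genes.

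**Figure D3:**
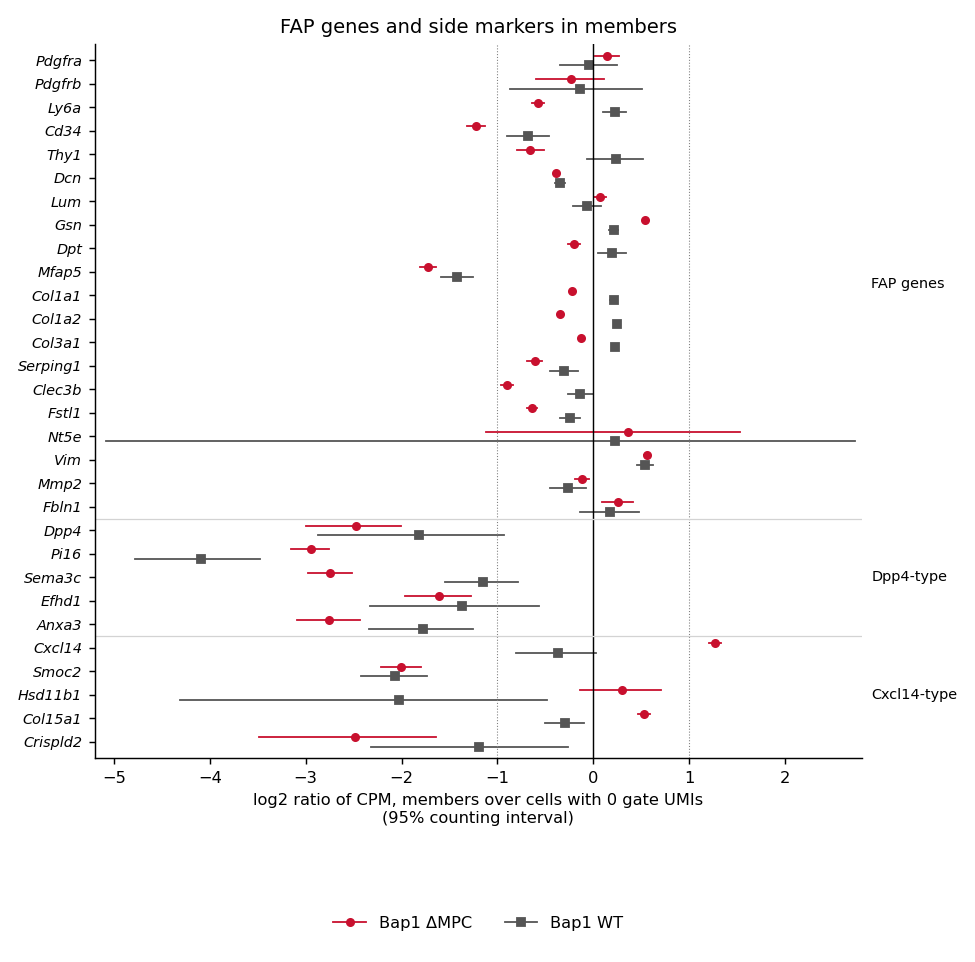
Log2 ratio of CPM, members over cells with 0 gate UMIs of the same library (horizontal axis), for 20 FAP genes, 5 Dpp4-type and 5 Cxcl14-type markers, in Bap1 ΔMPC (red circles) and Bap1 WT (grey squares). Lines are 95% counting intervals cut off at the edge of the plot and dotted lines mark 2-fold; most FAP genes lie between the dotted lines, and all 5 Dpp4-type markers lie below -1 in both libraries.

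FAPs fall into a *Dpp4*-expressing kind, thought to be the more immature, and a *Cxcl14*-expressing kind. All 5 markers of the *Dpp4* kind were called lower in the members of both libraries. Over all genes 2.09% were called lower in *Bap1* WT and 5.70% in *Bap1* ΔMPC. *Pi16*, a peptidase inhibitor gene, was at 74.7 against 1271 CPM in *Bap1* WT members and 123 against 953 CPM in *Bap1* ΔMPC, and *Dpp4* itself at 35.6 against 125 CPM and 21.1 against 117 CPM. The markers of the *Cxcl14* kind did not all lie on 1 side. *Cxcl14*, a chemokine gene, was at 1463 against 607 CPM in *Bap1* ΔMPC members, a called difference, and at 178 against 230 CPM in *Bap1* WT. *Smoc2*, which encodes a matrix-bound calcium-binding protein, was called lower in both, at 111 against 444 CPM and 252 against 1058 CPM, with 37 of its 71 UMIs in *Bap1* WT members in 1 cell, and so was *Crispld2*. *Hsd11b1*, the enzyme that reactivates glucocorticoids, was called lower in *Bap1* WT on 3 UMIs. Each cell was placed by the z-scored sum of both marker sets, which gives a range and not a type. On that scale 119 of 133 *Bap1* ΔMPC members (89.5%, interval 83.0 to 94.1) lay on the *Cxcl14* side, against 52.7% of the cells with 0. In *Bap1* WT 13 of 18 members (72.2%, 46.5 to 90.3) did so, against 61.2%, which is within the interval. Near the cut, within 1 unit of the score, lay 9 and 2 members.

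The adipogenic regulators differed gene by gene. *Cebpa* was at 138 against 21.3 CPM in *Bap1* ΔMPC members and 67.6 against 20.3 CPM in *Bap1* WT, and had a UMI in 71 of 133 and 11 of 18 members. It was the regulator with the most UMIs among those called in both libraries. *Rxrg*, a partner receptor, was also called in both but on 4 UMIs each. In the *Bap1* ΔMPC library *Nr1h3* (LXRα, a sterol-sensing receptor) was at 60.9 against 14.1 CPM, and *Klf15*, *Mlxipl* and *Prdm16* were called on 36 UMIs or fewer. In all, 6 of 21 regulators tested were called higher and 0 lower there, and 2 of 20 higher and 1 lower in *Bap1* WT, where *Zfp423*, a preadipocyte factor, had 1 UMI in members. *Cebpb*, an early and transient inducer of adipogenesis, was at 441 against 349 CPM in *Bap1* ΔMPC and 302 against 392 CPM in *Bap1* WT, within 2-fold. Among 6 inhibitors of adipogenesis tested in each library, 0 were called higher. Over all genes 2.60% were called higher in *Bap1* WT and 4.32% in *Bap1* ΔMPC, so 0 of 6 tells little. Called lower were *Dlk1* and *Zfp521* in *Bap1* WT and *Wnt10b* in *Bap1* ΔMPC. *Wnt10b*, the Wnt ligand that holds back adipogenesis, was called lower in *Bap1* ΔMPC at 2.34 against 17.7 CPM and had no UMI in *Bap1* WT members. *Dlk1* (Pref-1) was called lower in *Bap1* WT, at 71.1 against 179 CPM, and was at 314 against 350 CPM in *Bap1* ΔMPC, where 216 of its 536 UMIs were in 1 cell.

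Of the 8 fat cell lists outside the gate, the genes for taking up lipid and glucose had the highest sum in members, 4360 CPM in *Bap1* ΔMPC and 3647 CPM in *Bap1* WT. *Lpl*, the lipase that frees fatty acids from lipoproteins, stood at 2138 against 729 CPM in *Bap1* ΔMPC members and at 1514 against 934 CPM in *Bap1* WT, where it stayed within 2-fold. *Fabp5*, the fatty acid carrier nearest to *Fabp4*, was at 524 against 17.0 CPM in *Bap1* ΔMPC members and 49.8 against 17.0 CPM in *Bap1* WT. Its 895 UMIs in *Bap1* ΔMPC lay in 62 members, with 157 in 1. *Cd36*, the fatty acid translocase, was at 42.1 against 0.401 CPM in *Bap1* ΔMPC and had 1 UMI in *Bap1* WT members. *Apoe*, the lipoprotein component, was called higher in both libraries and was the more abundant in *Bap1* WT, at 1411 against 280 CPM, than in *Bap1* ΔMPC, at 588 against 99.0 CPM. The *Bap1* WT level leaned on few cells, since 3 of the 18 members held 100, 60 and 59 of the 397 *Apoe* UMIs. *Angptl4*, a secreted inhibitor of this lipase, was called higher in both as well. Of the uptake list 6 of 11 genes tested were called higher in *Bap1* ΔMPC and 3 of 10 in *Bap1* WT, with median log2 ratios of 1.55 and 0.48. Over all genes the shares called higher were 4.32% and 2.60%.

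Droplet and synthesis genes were called in the *Bap1* ΔMPC members, and few of them in *Bap1* WT. Of 10 lipid droplet and lipolysis genes tested in *Bap1* ΔMPC, 6 were called higher and 0 lower, beside 4.32% and 5.70% of all genes there. *Plin2*, the droplet coat protein of cells that are filling with lipid, was at 222 against 54.7 CPM, and *Fitm2*, which drives droplet budding, at 51.5 against 5.54 CPM. *G0s2*, an inhibitor of the triglyceride lipase, was at 282 against 82.9 CPM, with 73 of 482 UMIs in 1 cell, and that lipase, *Pnpla2*, at 54.4 against 24.2 CPM. In *Bap1* WT members *Plin2* was at 60.4 against 52.5 CPM, and 0 of 11 genes of this list were called. Over all genes 2.60% were called higher and 2.09% lower there, so 0 of 11 tells little. For fatty acid and triglyceride synthesis, 7 of 18 genes were called higher in *Bap1* ΔMPC, among them *Acsl1*, which activates fatty acids, at 57.3 against 8.07 CPM and the acyltransferase *Agpat2* at 62.6 against 24.2 CPM. The fatty acid synthase *Fasn* was at 72.0 against 39.5 CPM, under 2-fold. In *Bap1* WT *Elovl6* and *Dgat2* were called higher on 7 and 6 UMIs, and the desaturase *Scd1* lower. The 18 *Bap1* WT members held 281289 UMIs in all and the 133 *Bap1* ΔMPC members 1708861, so a gene at 10 CPM had about 3 UMIs in the first, and small differences were not detectable there.

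Some transcripts known from mature adipocytes, picked out of the lists after their values were seen, had few or no UMIs. The leptin gene *Lep* had 0 UMIs in the members of both libraries. A floor of 3 counts stands for 1.76 CPM in *Bap1* ΔMPC and 10.7 CPM in *Bap1* WT. The exact upper limit for 0 UMIs lies above this floor, at 13.1 CPM in *Bap1* WT. The adipsin gene *Cfd* had 1 UMI, the resistin gene *Retn* 4 and the droplet fusion gene *Cidec* 4, all in *Bap1* ΔMPC members. *Adrb3*, the adrenergic receptor of fat cells, and *Ucp1*, the uncoupling protein of brown fat, had 0 in both. Other secreted products were present. *Rbp4*, the retinol carrier, was at 336 against 140 CPM in *Bap1* ΔMPC, and *Agt* (angiotensinogen) was at 51.5 against 0.927 CPM there and at 35.6 against 0.316 CPM in *Bap1* WT, where 9 of its 10 UMIs were in 1 member. *Apln* (apelin) and *Lcn2* (lipocalin 2) completed the 4 of 6 adipokine genes called higher in *Bap1* ΔMPC, and 3 of 6 were called in *Bap1* WT, all of them on 10 UMIs or fewer. Of 5 brown fat genes *Cox8b*, a muscle and brown fat subunit of cytochrome oxidase, and *Prdm16* were called higher and *Dio2* lower in *Bap1* ΔMPC, and the whole list had 0 UMIs in *Bap1* WT members. Of 13 fatty acid oxidation genes 2 were called higher and 1 lower in *Bap1* ΔMPC, and 0 in *Bap1* WT. Of 6 insulin and adrenergic signalling genes 1, the phosphodiesterase *Pde3b*, was called higher in *Bap1* ΔMPC and 0 in *Bap1* WT. Over the 8 fat cell lists together, 33 of 89 genes tested were called higher and 2 lower in *Bap1* ΔMPC, with a median log2 ratio of 0.55. In *Bap1* WT 10 of 87 were called higher and 2 lower, with a median of 0.15. Over all genes 4.32% were called higher and 5.70% lower in *Bap1* ΔMPC, and 2.60% and 2.09% in *Bap1* WT. At these shares, short lists with 0 or 1 genes called tell little.

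**Figure D4:**
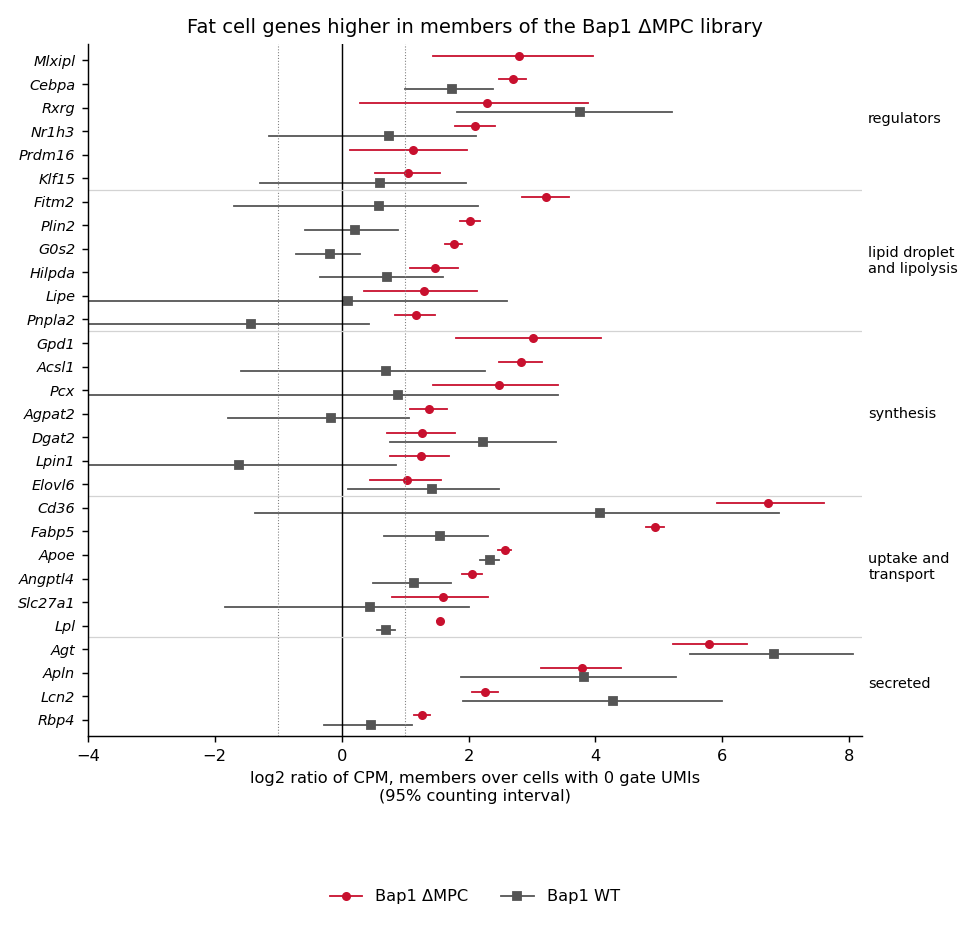
Log2 ratio of CPM, members over cells with 0 gate UMIs of the same library (horizontal axis), for the genes of 5 fat cell lists that were called higher in Bap1 ΔMPC members, in Bap1 ΔMPC (red circles) and Bap1 WT (grey squares); lines are 95% counting intervals cut off at the edge and dotted lines mark 2-fold. Genes with no UMI in Bap1 WT members have no grey square. Since the genes were picked on the red values, the grey ones are the ones to read: Cebpa, Apoe, Fabp5 and Agt lie above 1, with 9 of the 10 Agt UMIs in 1 cell, and Plin2 and G0s2 near 0.

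Committed preadipocytes carry *Icam1* and *Aoc3*. *Aoc3*, an amine oxidase at the cell surface, was called higher in both libraries, at 297 against 58.9 CPM in *Bap1* ΔMPC and 185 against 55.7 CPM in *Bap1* WT. It had a UMI in 116 of 133 *Bap1* ΔMPC members, or 87.2%, against 31.9% of the cells with 0. *Icam1*, an adhesion molecule, was at 217 against 91.3 CPM in *Bap1* ΔMPC and 121 against 69.5 CPM in *Bap1* WT, where it was not called. Of this list 3 of 8 genes tested were called higher in *Bap1* ΔMPC, and 1 of 7 higher and 2 lower in *Bap1* WT. Among the 4 stromal markers of the *F3* type, which are linked to an adipogenesis-restraining cell, *Gdf10* was called higher in *Bap1* ΔMPC and 0 in *Bap1* WT. Over all genes 4.32% were called higher and 5.70% lower in *Bap1* ΔMPC, and 2.60% and 2.09% in *Bap1* WT.

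Matrix and complement genes went different ways. Of 18 matrix genes 5 were called lower in *Bap1* ΔMPC members, namely *Fn1*, *Fbn1*, *Ogn*, *Eln* and *Fbln2*. In that library 89.5% of members lay on the *Cxcl14* side, against 52.7% of the cells with 0. The part of this in the matrix genes was not tested. The fibronectin gene *Fn1* was at 661 against 1950 CPM and the elastin gene *Eln* at 241 against 903 CPM. In *Bap1* WT *Fbln2* alone was called lower, at 302 against 782 CPM, and *Thbs1* higher, with 119 of its 218 UMIs in 1 cell. Of 9 complement and acute phase genes 4 were called higher in *Bap1* ΔMPC: *C3* at 1135 against 505 CPM, *C4b* at 146 against 43.8 CPM, *Cfb* at 30.4 against 12.6 CPM and *Hp* (haptoglobin) at 300.2 against 1.98 CPM. *C4b* was called higher in *Bap1* WT too, at 195 against 26.8 CPM, while *C3* was at 366 against 189 CPM, just under 2-fold. Of 8 glucocorticoid response genes 0 were called in either library. Of 14 cell cycle genes 0 were called in *Bap1* ΔMPC and *Mcm5* was called higher in *Bap1* WT on 6 UMIs. Cells with 3 or more cell cycle UMIs made up 18.0% of *Bap1* ΔMPC members against 11.2% of cells with 0. In *Bap1* WT they made up 11.1% (2 of 18 members) against 6.16%. Members were deeper, and a deep cell reaches 3 UMIs more easily. Per UMI, the cell cycle list was at 235 against 208 CPM in *Bap1* ΔMPC, with 113 of the members' 402 UMIs in 1 cell. In *Bap1* WT it was lower in members, at 92.4 against 116 CPM. Among 10 immediate early and stress genes, only *Hspa1b* was called, lower in *Bap1* ΔMPC. Beside these lists, 4.32% of all genes were called higher and 5.70% lower in *Bap1* ΔMPC, and 2.60% and 2.09% in *Bap1* WT. The lists with 0 or 1 genes called therefore tell little.

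Beyond the lists, the genes with the largest ratios in *Bap1* ΔMPC members that lay on the same side in *Bap1* WT were taken by rule. On the higher side *Agt* led with a log2 ratio of 5.79 (5.23 to 6.39), with 6.81 in *Bap1* WT on the 10 UMIs of 2 members. *Ppp1r1a*, an inhibitor of protein phosphatase 1, followed at 5.67 in *Bap1* ΔMPC, on 1 UMI in *Bap1* WT members. *Fabp5* had 4.94, and *Enpep*, an aminopeptidase that cleaves angiotensin II, had 3.92 (3.54 to 4.29) with 2.78 (1.90 to 3.55) in *Bap1* WT. *Cyp1b1*, a cytochrome P450, had 3.32 with 3.89 in *Bap1* WT, where 13 of 16 UMIs were in 1 cell. *Adhfe1* had 3.37 with 3.66, on 3 UMIs in *Bap1* WT. *Prkar2b* (a regulatory subunit of protein kinase A), *Ptger3* (a prostaglandin E receptor), *Nup62cl* and *Trf* (transferrin) had 3.36, 3.34, 3.32 and 3.32 in *Bap1* ΔMPC, each on 1 or 2 UMIs in *Bap1* WT. *Agt*, *Fabp5*, *Enpep*, *Adhfe1* and *Cyp1b1* were the ones called in both libraries.

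On the lower side the 10 genes had few UMIs in the members, and each was detected in a minority of other FAPs, from 3.45% of the *Bap1* ΔMPC cells with 0 for *Egfl6* to 19.2% for *Col8a1* and 24.0% for *Il33*. *Col8a1*, a short-chain collagen, had 15 UMIs in the 133 *Bap1* ΔMPC members and a log2 ratio of -4.94 (-5.77 to -4.21), and it had 0 UMIs in *Bap1* WT members. *Il33*, the alarmin that FAPs supply to regulatory T cells, had 4 UMIs and a log2 ratio of -4.88, with -2.72 on 3 UMIs in *Bap1* WT. *Angptl7*, with 1 UMI in *Bap1* ΔMPC members, had -6.26, and *Sema3d* had -4.96, also on 1 UMI. *Egfl6*, *Ackr4*, *Necab3*, *C1qtnf3* and *Cbln2* lay between -4.21 and -3.64 on 1 to 3 UMIs, and *Kera* (keratocan) had 0 UMIs in the members of either library. In *Bap1* WT each of these 10 genes had 0 to 3 UMIs in the members. *Sema3d*, *Col8a1* and *Il33* were the ones called lower in both libraries. The others were not called in *Bap1* WT, and those with 0 UMIs were placed there by the floor of 3 counts. *Kera* stood at -0.01 there, with an interval that reached 0.30.

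How far the libraries shared their calls was counted over the 13021 genes tested in both. Of these, 117 were called higher in both, 118 lower in both and 13 in opposite directions. Of 523 genes called higher in *Bap1* ΔMPC and tested in *Bap1* WT, 352 had a ratio above 1 there, 58 below 1 and 113 no UMI that gave a fold. Of 761 called lower, 508 were below 1, 145 above 1 and 108 gave no fold. Over all genes tested in *Bap1* WT that gave a fold, the median log2 ratio was -0.01. Of all genes tested there, 2.60% were called higher and 2.09% lower. In numbers, 350 genes were called higher and 282 lower in *Bap1* WT, and 580 and 764 in *Bap1* ΔMPC. Scaling the sums by TMM in place of totals turned the *Bap1* WT split to 290 higher and 384 lower and left the other at 575 and 780. With each cell thinned to 5000 UMIs, 179 and 67 genes were called in *Bap1* WT and 471 and 565 in *Bap1* ΔMPC.

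Levels followed the gate count beyond the threshold. The members were therefore also described in 2 strata, chosen after the values were seen, of 3 to 9 and of 10 or more gate UMIs. In *Bap1* ΔMPC *Cebpa* was at 21.3 CPM in cells with 0 gate UMIs, 36.7 in cells with 1 or 2, 77.8 in cells with 3 to 9 and 224 in cells with 10 or more. *Lpl* went through 729, 1080, 1912 and 2460 CPM and *Plin2* through 54.7, 70.5, 143 and 334 CPM. *Fabp5* stood at 17.0, 22.9 and 117 CPM before it reached 1101 CPM. Cells with 1 or 2 gate UMIs, which are not members, thus already lay above cells with 0 for these genes. *Agpat2* went through 24.2, 24.6, 31.9 and 106 CPM and *Acsl1* through 8.07, 8.19, 18.0 and 113 CPM. For these genes the counting intervals of cells with 1 or 2 gate UMIs took in the level of cells with 0, and at 3 to 9 gate UMIs *Acsl1* stood above that level while the interval of *Agpat2* (21.8 to 45.1 CPM) still held it.

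FAP genes took the other course at the top of the range. In *Bap1* ΔMPC *Pdgfra* was at 291, 329, 370 and 252 CPM from 0 to 10 or more gate UMIs, and was detected in 89.0% of members with 3 to 9 and 72.5% of those with 10 or more. Of the 6 cells with the most gate UMIs 5 had 0 *Pdgfra* UMIs and the other 1 had 1, at 15 to 93 UMIs of *Dcn* and 42 to 126 of *Col3a1*. *Col1a1* was at 9981 CPM at 3 to 9 and 6169 CPM at 10 or more, and *Mfap5* at 846 and 456 CPM, against 9799 and 2267 CPM in cells with 0. *Col4a1*, a basement membrane collagen that fat cells also make, was at 1369, 1774, 2454 and 2666 CPM. *Cxcl14* was highest at 3 to 9 gate UMIs, at 1710 CPM, and was at 1112 CPM at 10 or more. *Apoe*, *C4b* and *Icam1* showed the same course or a level one, with *C4b* at 206 and then 62.3 CPM. In *Bap1* WT the top stratum was 5 cells, and *Cebpa* was at 20.3, 26.7, 76.5 and 46.9 CPM and *Apoe* at 280, 655, 1193 and 1913 CPM. In that stratum 59 and 100 of the 163 *Apoe* UMIs were in 2 cells. In the 51 *Bap1* ΔMPC members with 10 or more gate UMIs, 29.4% had 3 or more cell cycle UMIs, against 11.0% of those with 3 to 9. The cell cycle list was at 272 CPM (235 to 313) and 210 CPM (182 to 240) in these strata, and the intervals overlap.

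**Figure D5:**
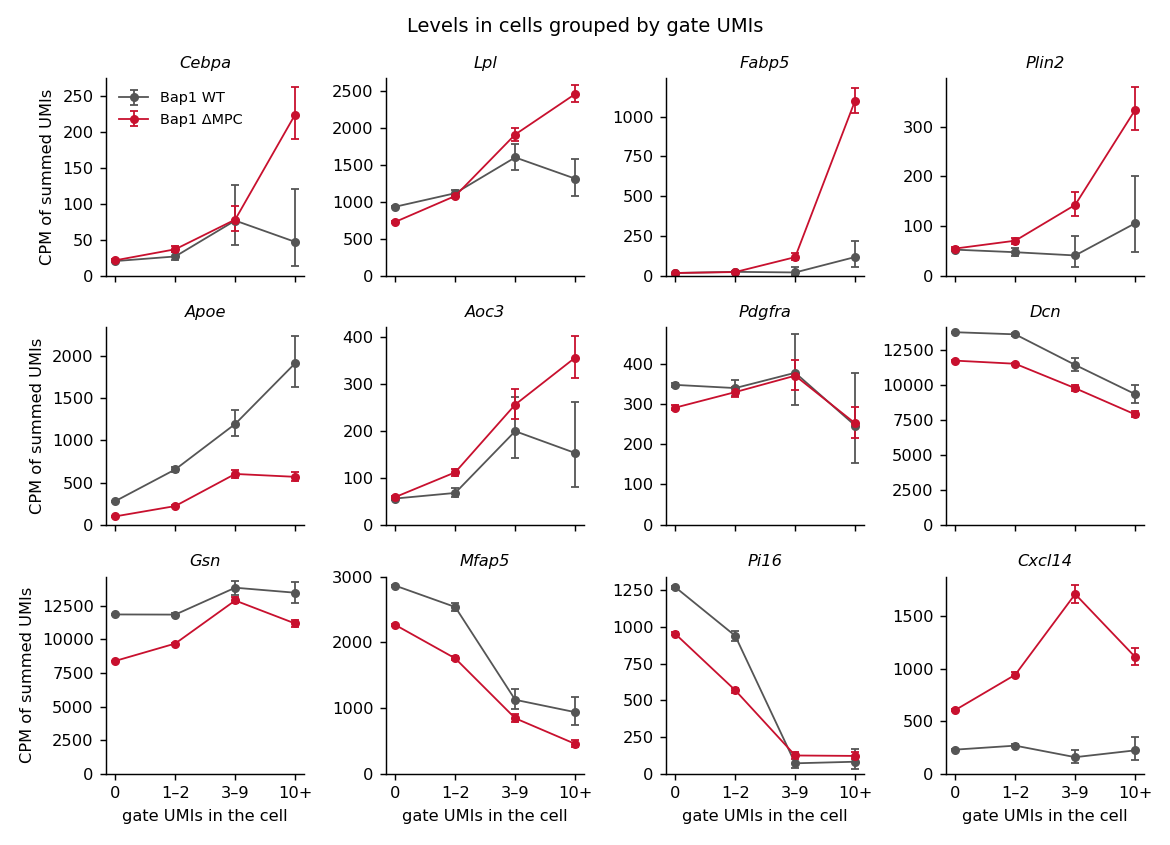
CPM of summed UMIs (vertical axes, each from 0) of 12 genes in cells grouped by gate UMIs (horizontal axes), in Bap1 WT (grey) and Bap1 ΔMPC (red), with 95% Poisson intervals; the genes were picked after their values were seen. Cebpa, Lpl, Fabp5 and Plin2 are highest at 10 or more gate UMIs in Bap1 ΔMPC, Mfap5 and Pi16 are lowest there, and the Bap1 WT point at 10 or more rests on 5 cells.

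Members of both libraries were set against each other with a 3-fold limit and a counting interval that left out equality. Of 8047 genes with 20 or more UMIs, 172 (2.14%) were higher in *Bap1* ΔMPC members and 104 (1.29%) lower. Some of the named genes differed as much between the cells with 0. *Hp* had 513 UMIs in *Bap1* ΔMPC members and 0 in *Bap1* WT. Against a floor of 3 counts its log2 ratio was 4.81, with an interval that began at 4.51, and it was 6.55 in cells with 0. The *Hp* UMIs lay in 31 members, 170 of them in 1. *Lcn2* had 3.73 in members and 5.75 in cells with 0, with 101 of its 242 UMIs in 1 member, and the class I gene *H2-Q7* had 3.94 and 3.03. *Thbs4*, a tendon gene, had 4.06 on 1 UMI in *Bap1* WT members, and 1.24 in cells with 0. *Fabp5* stood apart from these, with a log2 ratio of 3.40 (2.64 to 4.27) in members and 0.01 (-0.14 to 0.16) in cells with 0. The members of the libraries also differed in gate UMIs, which reached 465 in *Bap1* ΔMPC and 32 in *Bap1* WT. *Fabp5* rose with gate UMIs in *Bap1* ΔMPC, as given above, and the cell with 465 held 157 of its 895 UMIs. The part of this in the *Fabp5* ratio was not tested.

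On the lower side *Sfrp2*, a secreted Wnt modulator, had -3.95 in members and -2.27 in cells with 0, and *Tgfbi* had -2.60 in members beside -2.65. *Mmp3*, a stromelysin, had -3.73 (-4.14 to -3.33) beside -1.22, and *Adm* (adrenomedullin) had -3.01 (-3.49 to -2.54) beside -0.27. In *Bap1* WT members 96 of the 168 *Mmp3* UMIs and 54 of the 89 *Adm* UMIs were in 1 cell, so these ratios leaned on single cells.

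Promoters were read for a sequence that C/EBP factors can bind, since *Cebpa* was among the genes higher in members of both libraries. The letters searched were TTGCNNAA on both strands, the only motif searched, in the 250 bases before each start in the RefSeq table for GRCm38.p6. Of 54 list or named genes called higher in *Bap1* ΔMPC members 38 had an entry, and 5 of these held the letters: *C3*, *Enpep*, *Lcn2*, *Rbp4* and *Rxrg*. Over all tested genes with an entry the share was 8.75% of 10243, against 11.5% of the 408 called higher, 9.64% of the 560 called lower and 12.9% of the 85 called higher in both. A match is a run of letters and not a shown site. The windows of *C3*, *Lcn2* and *Enpep* are shown since these are secreted or surface products among the members' higher genes, each on the minus strand, 5′ to 3′, with the match in capitals. The *C3* window is chr17:57228137-57228386 with the match beginning 45 bases before the start, the *Lcn2* window chr2:32387740-32387989 with 216 bases, and the *Enpep* window chr3:129332750-129332999 with 121 bases.
*C3*: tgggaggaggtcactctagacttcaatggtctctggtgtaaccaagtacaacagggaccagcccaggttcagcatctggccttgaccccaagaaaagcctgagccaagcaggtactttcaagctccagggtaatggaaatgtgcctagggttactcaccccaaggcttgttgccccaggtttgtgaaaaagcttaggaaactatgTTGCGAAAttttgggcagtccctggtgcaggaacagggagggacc
*Lcn2*: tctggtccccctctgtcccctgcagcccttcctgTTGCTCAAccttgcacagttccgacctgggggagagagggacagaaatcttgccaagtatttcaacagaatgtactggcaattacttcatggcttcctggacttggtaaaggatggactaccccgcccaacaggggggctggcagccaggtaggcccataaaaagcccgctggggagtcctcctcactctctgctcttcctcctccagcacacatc
*Enpep*: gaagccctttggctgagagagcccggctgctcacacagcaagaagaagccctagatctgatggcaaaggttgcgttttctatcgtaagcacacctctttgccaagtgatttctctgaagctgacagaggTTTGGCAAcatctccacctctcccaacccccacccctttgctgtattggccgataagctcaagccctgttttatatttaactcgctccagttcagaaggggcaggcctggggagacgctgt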

How the data were processed

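Raw UMI counts per gene and cell were used as the authors deposited them, 1 table per library, with 31053 genes. Per the labels and the study's methods, reads were aligned to mm10 with Cell Ranger 3.1.0 and cells were gated for quality and doublets and cleared of non-FAPs in Seurat 3.2.1 (R 3.6.1); FastQC 0.11.7 and bcl2fastq 2.20.0 are also listed. What limits were set is not given in the sources used here. The libraries held 51015705 and 49540066 UMIs, with 1501 to 4998 detected genes per cell, and no cell was removed here. Values that depend on few UMIs are the less precise, and their intervals show this.

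UMIs were summed over members and over cells with 0 gate UMIs in each library and divided by the summed totals (CPM). Gate genes were left out of every count of called genes. Where a group had 0 UMIs, 3 were put in as a floor, and where that would turn the direction no fold was given. The planned call was a ratio past 2-fold with 20 or more UMIs in both groups together; the requirement that the interval leave out equality was added after the data were seen, since most calls without it rested on under 20 member UMIs. Intervals were exact (Poisson, Clopper-Pearson or conditional binomial, scipy 1.17.1). No test and no p-value was computed, since each genotype has 1 library. Doublets were sought with Scrublet in scanpy 1.11.5, and TMM factors came from edgeR 4.0.16 as an alternative scaling. The ratio step was checked on simulated counts that held counting error alone. A known fold, larger than the 2-fold limit, was put into 200 genes with 20 or more expected member UMIs. In each library all 200 were called. Recovery of smaller folds, or of genes with fewer member UMIs, was not checked. Of the unchanged genes, 199 were called in *Bap1* WT and 113 in *Bap1* ΔMPC. The data themselves gave 632 and 1344 calls, of which 517 and 747 rested on under 20 member UMIs. Many *Bap1* WT calls on few UMIs may therefore be counting error. Named genes were the gate, the gene lists, *Bap1*, the 10 largest ratios of each direction in *Bap1* ΔMPC members with 100 or more UMIs that lay on the same side in *Bap1* WT, and the 5 largest of each direction between libraries. Some genes that these rules name are not reported here. The members, lists and alternatives were chosen with earlier results of these data known.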

Additional observations from a re-analysis of the deposited data

How the results depend on the processing

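No paired analysis was possible because there was 1 library per genotype and nothing was tested. The *Bap1* ΔMPC share of members stayed above the *Bap1* WT share under every alternative, from 5.60 times with 2 or more gate UMIs to 14.1 times without *Fabp4* in the gate. The *Bap1* WT and *Bap1* ΔMPC shares were 0.975% and 5.46% at 2 or more gate UMIs, 0.146% and 2.06% without *Fabp4*, 0.195% and 2.44% when 2 or more gate genes were needed, and 0.176% and 1.82% after thinning to 5000 UMIs. At 5 or more gate UMIs the *Bap1* ΔMPC share was 1.92%, and after thinning to 8000 UMIs 2.36%. Thinned members had a median of 1915 and 1985.5 genes. When 2 or more gate genes were needed, 95.3% of *Bap1* ΔMPC members lay on the *Cxcl14* side and markers of other cell types came to 528 CPM.

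Counts of genes moved with the call rule. Without an interval, 1115 genes were higher and 1013 lower in *Bap1* WT members, and 862 and 1234 in *Bap1* ΔMPC. With an interval, these were 350 and 282, and 580 and 764. Which direction held more genes could turn: under TMM without an interval 991 were higher and 1201 lower in *Bap1* WT, and the counts with no minimum below also turned it. At 3-fold and no interval they were 535 and 341, and 323 and 495. With 100 or more UMIs 650 were higher in *Bap1* WT and 433 in *Bap1* ΔMPC, and with no minimum 1743 were higher and 1234 lower in *Bap1* ΔMPC. Thinned, 482 were lower in *Bap1* WT. Without the 10 members richest in gate UMIs, which leaves 8 in *Bap1* WT, 125 genes were called lower there with an interval, and 28 of the fat cell genes were called higher in *Bap1* ΔMPC, against 33. Between libraries, 405 genes were higher and 104 lower at 3-fold and no interval, 980 and 420 at 2-fold, 53 and 21 with 100 or more UMIs, and 172 higher with an interval, while with no minimum 405 were higher and 852 lower. On the *Cxcl14* side alone 29 fat cell genes were called higher and 19 of 20 FAP genes lay within 2-fold in *Bap1* ΔMPC.

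With 18 *Bap1* WT members holding 281289 UMIs, 1 UMI stood for 3.56 CPM, and the *Bap1* WT ratios of rare genes have wide intervals. Counting intervals hold no variation between mice. The genotype cannot be told apart from the library, and the part of free RNA was not tested.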
